A study of Mus musculus with 19 samples.

Results

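The genes described here are 10 that drive or restrain passage through the G1 phase of the cell cycle: the D-type cyclins Ccnd1, Ccnd2 and Ccnd3, the E-type cyclins Ccne1 and Ccne2, the D-cyclin kinases Cdk4 and Cdk6, the phosphatase Cdc25a, the kinase inhibitor Cdkn1b and the retinoblastoma gene Rb1. They were taken by name and not by their values, and all 10 were among the 21685 genes of the table. All 10 passed the filter on low values, which asked for at least 10 normalised units in at least 4 libraries and left 14988 genes for testing. The mRNA of male C57BL/6 mouse embryonic stem cells (mESCs) grown in FCS and LIF was sequenced in 4 genotypes of the RNA-binding proteins TRIM71 and LIN28A. WT-WT cells (Trimfl/fl - Lin28afl/fl, 4 libraries) carried conditional, undeleted alleles of both genes, KO-WT cells (Trim-/- - Lin28afl/fl, 4 libraries used of 5) had lost Trim71, WT-KO cells (Trimfl/fl - Lin28a-/-, 5 libraries) had lost Lin28a, and KO-KO cells (Trim-/- - Lin28a-/-, 5 libraries) had lost both. All cells were sorted for SSEA-1, a surface antigen of undifferentiated mouse cells. Trim71 was deleted by 500 nM 4-hydroxytamoxifen (4-OHT) over 2 days, followed by at least 7 further days of culture, and no such treatment is stated for the Trim71-intact cells, so treatment and deletion cannot be told apart. Lin28a-intact cells were clones 1 and E3 and Lin28a-null cells were clones 1-4 and C1, so Lin28a genotype and clone cannot be told apart either; how Lin28a was deleted is not given in the sources used here. Libraries of a genotype are harvests of these clones on different days, so the p-values measure the spread between such harvests.

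D-type cyclins bind CDK4 or CDK6, and the active kinases phosphorylate the retinoblastoma protein, which releases E2F transcription factors. E2F then raises the E-type cyclins, which activate CDK2 and start DNA replication, while CDC25A removes inhibitory phosphates from the kinases and CDKN1B holds cyclin-kinase complexes inactive. Mouse embryonic stem cells have a short G1 phase and high cyclin E-CDK2 activity for much of the cycle. LIN28A blocks the maturation of let-7 microRNAs, TRIM71 is itself a let-7 target, and let-7 is known from other systems to repress several G1 drivers.

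The mature let-7 sequences are shown because their seed is what a target site pairs with. From RefSeq's table (GRCm38.p6), 9 members of the family were matched, and all 9 carried the same seed, bases 2 to 8, set in capitals in 3 of them.

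let-7a: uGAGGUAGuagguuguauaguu

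let-7g: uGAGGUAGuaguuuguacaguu

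miR-98: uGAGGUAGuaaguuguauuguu

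The 3′ UTR of 1 annotated transcript per gene (GENCODE, GRCm38) was searched on the sense strand for the 2 usual 7-base matches to this seed. These were CTACCTC, complementary to bases 2 to 8, and TACCTCA, complementary to bases 2 to 7 and followed by an A; the 2 overlap by 6 letters. The 8 matches in 6 of the 10 genes are shown with their surroundings, match in capitals, because they are the sites through which let-7 could reach these transcripts.

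Ccnd1 (chr7:144930589-144930618, minus strand): gttcctgttcacaaTACCTCAtgtatcatc

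Ccnd2, the first (chr6:127128291-127128320, minus strand): aagagagtattcttTACCTCAggtttactg

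Ccnd2, the second (chr6:127128213-127128242, minus strand): tttcgttttcctaaTACCTCAcagctatac

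Ccnd2, the third (chr6:127125577-127125606, minus strand): atccttctgccatgTACCTCAgatctatca

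Cdk4 (chr10:127067659-127067688, plus strand): ctagggcccgaggcCTACCTCccctcatcc

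Cdk6 (chr5:3521625-3521654, plus strand): ttaaggagtgagtgTACCTCAgataggttt

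Cdc25a (chr9:109892733-109892762, plus strand): tatcatcctaggagCTACCTCtacttttaa

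Rb1 (chr14:73196550-73196579, minus strand): tgacacagatttcaTACCTCAgaccctcta

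Ccnd2 held 3 matches in a 3′ UTR of 5173 bases, and its first and second matches lie close together, starting 2029 and 2107 bases after the stop codon. The other 5 genes held 1 match each, and Ccnd3, Ccne1, Ccne2 and Cdkn1b held none in the annotated 3′ UTR searched. Among the 20635 genes with a 3′ UTR, 8.2% held the first motif, 9.05% the second and 13.7% either. The members' 3′ UTRs run from 531 bases (Ccne1) to 10217 bases (Cdk6), and these shares are over UTRs of all lengths, so they are no length-matched background. A match is a run of letters and not a measured site, and no microRNA was measured in the libraries described here.

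**Figure D1:**
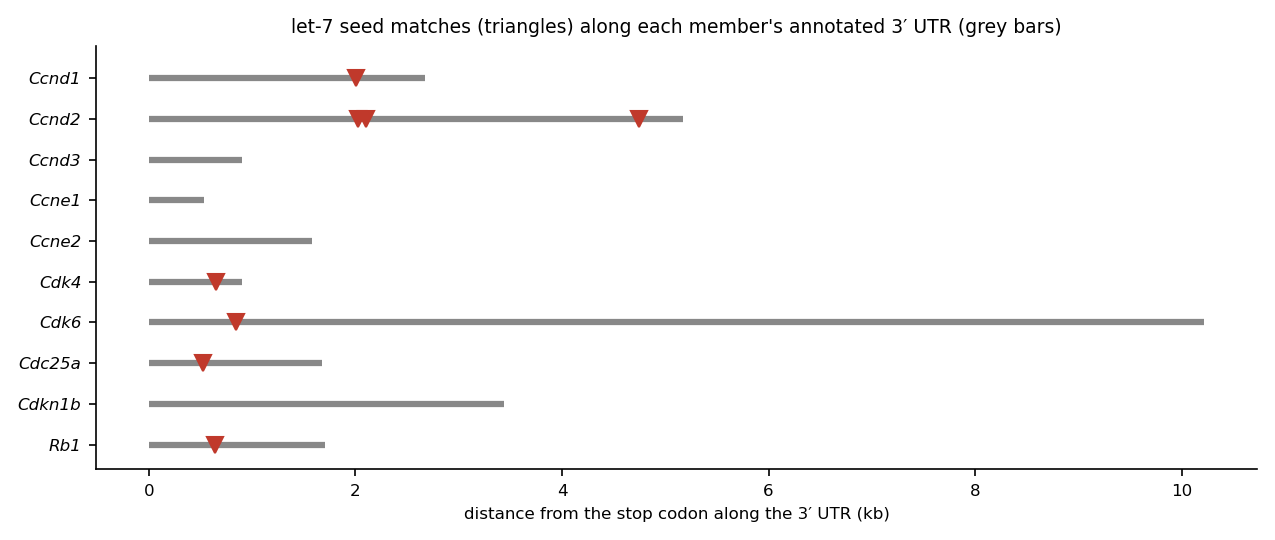
Position of the let-7 seed matches (triangles) along the annotated 3′ UTR of each of the 10 genes (grey bars), in kb from the stop codon. The 3 matches of Ccnd2 and the single matches of Ccnd1, Cdk4, Cdk6, Cdc25a and Rb1 are seen, with none in the other 4 genes.

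The deletions were visible in the table: Trim71 had a mean log2 value of 10.2 in WT-WT against 8.89 in KO-WT cells and 10.7 in WT-KO against 9.28 in KO-KO cells, and Lin28a fell from 10.1 and 9.84 in the Lin28a-intact groups to 8.47 and 8.28 in the null groups, with no overlap between libraries in either case. Reads from the parts of a deleted gene that remain can keep such values above 0, and whether they did so here was not tested. The values of all genes summed to between 7.30e+06 and 7.68e+06 units per library after the authors' normalisation, and the sequencing depth is unknown. Embryonic stem cell markers were high in all libraries, with a summed log2 level of 15.1 to 15.6 over 8 genes, of which Fut4 was low at 2.66 to 3.41. Markers of other lineages, apart from mesoderm, moved with the Lin28a genotype. The summed mesoderm list lay at 6.38 to 6.63 in Lin28a-intact and 6.35 to 6.53 in Lin28a-null libraries. Of its 3 tested genes, 1 was lower in each Lin28a comparison. The summed trophectoderm list of 10 genes lay at 12.2 to 12.6 in Lin28a-intact and 9.95 to 10.4 in Lin28a-null libraries, with Elf5 near 0 throughout, and 6 of its 8 tested genes were lower in both Lin28a comparisons. Primitive endoderm markers lay at 11.40 to 12.16 and 10.16 to 11.05, with 7 and 5 of 7 tested genes lower on Lin28a loss. Within each Lin28a state this list lay higher without Trim71. It was 11.75 to 12.16 in KO-WT against 11.40 to 11.73 in WT-WT, and 10.66 to 11.05 in KO-KO against 10.16 to 10.58 in WT-KO libraries. On Trim71 loss 1 and 2 of its 7 tested genes were higher, where 11.2% and 8.38% of all genes changed by the test below. Of the fibroblast markers, 3 of 4 tested genes were lower in both Lin28a comparisons. Stem cell markers were higher in 5 and 3 of 7 tested genes, and neural progenitor markers in 3 of 5 in each, with 1 lower where Trim71 was intact. By the same test 22.0% of all genes were lower in each Lin28a comparison, and 20.3% and 20.8% were higher. The part of these differences in the results below was not tested, and in bulk RNA fewer cells of a type and less RNA per cell cannot be told apart.

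Differences are given on the log2 scale from 1 linear model (limma) with a term for genotype and 1 for harvest day over 18 libraries, each with its standard error (SE). A gene is called changed where the Benjamini-Hochberg adjusted p over all 14988 genes is under 0.05. Trim71 loss changed none of the 10 genes in Lin28a-intact cells by this test, although 2 (Cdk6 and Cdc25a) had an unadjusted p under 0.05, and 11.2% of all genes tested were called there. In Lin28a-null cells Trim71 loss lowered 1 of the 10, Cdc25a, where 8.38% of all genes were called and 4.12% were called lower. Lin28a loss with Trim71 intact raised 4 of the 10 and lowered 2, where 20.3% of all genes rose and 22.0% fell (42.4% in all). In Trim71-null cells it raised 2 and lowered 1, where 20.8% rose and 22.0% fell (42.8% in all). KO-KO against WT-WT cells had 2 members higher and 3 lower, where 21.0% of all genes were higher and 24.6% lower (45.6% in all); under median scaling 3869 genes were called higher and 2965 lower in this comparison, against 3143 and 3691. The same scaling gave 3727 higher and 2725 lower on Lin28a loss with Trim71 intact, against 3049 and 3302, and 3662 and 2792 in Trim71-null cells, against 3120 and 3292. The shares among the 10 lay near the background of each comparison, so what follows describes which G1 genes moved and by how much. Of the members, 3 did not overlap between the genotypes in each Lin28a comparison, as for 40.8% and 40.7% of all genes. The comparisons that share a genotype share its libraries, so their values for a gene are not independent of each other.

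**Figure D2:**
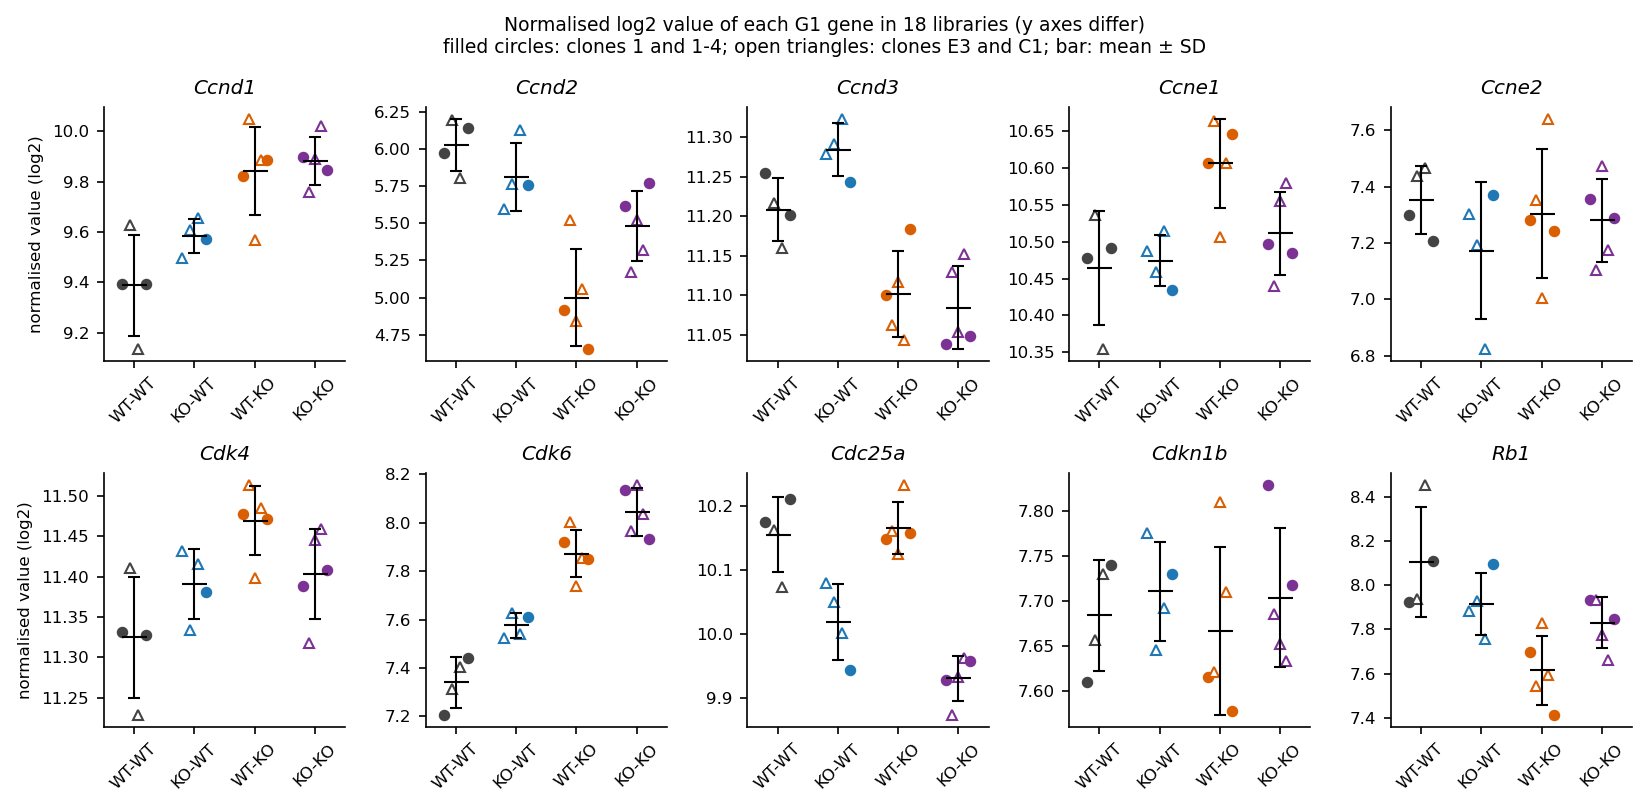
Normalised log2 value (y axes differ between panels) of each of the 10 genes in the 18 libraries, by genotype, with mean ± SD over 4, 4, 5 and 5 libraries. By their means, Cdk6 climbs through the 4 genotypes, Ccnd2 is lowest in WT-KO cells, and Cdc25a is lower in both Trim71-null genotypes. On Trim71 loss only the Cdc25a difference in Lin28a-null cells was called.

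Per kilobase of transcript, the 10 genes fell into tiers that held in all 4 genotypes. Cdk4 was highest, at 1249 units per kb in WT-WT cells, followed by Ccnd3 at 1120, Ccne1 at 707, Cdc25a at 314 and Ccnd1 at 179. Rb1, Ccne2 and Cdkn1b formed a middle tier at 59.2, 54.4 and 45.2 units per kb, and Rb1 and Ccne2 overlapped there between libraries. Cdk6 at 14.1 and Ccnd2 at 10.3 units per kb were lowest, below every library of the middle tier. The order within the middle tier changed between genotypes with overlapping libraries: Rb1 was first of the 3 in WT-WT and KO-WT cells and last in WT-KO cells. In KO-KO cells Cdc25a at 269 and Ccnd1 at 252 units per kb also overlapped. These levels use the length of 1 annotated transcript per gene and would move with another isoform.

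Ccnd1 (chr7:144929931-144939925, minus strand, GRCm38), which encodes cyclin D1, was higher in Lin28a-null than in Lin28a-intact cells. Its log2 values were 9.39, 9.63, 9.14 and 9.39 in WT-WT libraries 1 to 4 and 9.50, 9.61, 9.66 and 9.57 in KO-WT libraries 1 to 4. In WT-KO libraries 1 to 5 they were 9.82, 10.05, 9.57, 9.89 and 9.89, and in KO-KO libraries 1 to 5 they were 9.90, 9.76, 9.89, 10.02 and 9.85. WT-WT replicate 3 was the lowest library, and WT-KO replicate 3 lay below WT-WT replicate 2, so those groups overlap, while KO-KO lay wholly above both Lin28a-intact groups. Lin28a loss raised Ccnd1 by 0.45 ± 0.0974 (SE) with Trim71 intact (37.0% higher; limma adjusted p 0.00146; higher in 3 of 4 pairs harvested together). In cells without Trim71 it raised Ccnd1 by 0.30 ± 0.0974 (limma adjusted p 0.0208; 4 of 4 pairs). After Trim71 loss the differences were 0.20 ± 0.105 with and 0.04 ± 0.0902 without Lin28a, neither called. Within clones E3 and C1 alone the Lin28a differences had the same size (0.45 and 0.30) and were not called (limma adjusted p 0.0805 and 0.138). The second was also lost without KO-WT replicate 1 (limma adjusted p 0.0828), without KO-KO replicate 4 (0.063) and on the 3 days with all 4 genotypes (0.0761).

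Ccnd2 (chr6:127125162-127152193, minus strand), cyclin D2, showed the opposite direction and the widest range of the 10 genes. Its log2 values were 5.97, 6.19, 5.81 and 6.14 in WT-WT and 5.60, 5.76, 6.13 and 5.75 in KO-WT libraries 1 to 4. In WT-KO libraries 1 to 5 they were 4.92, 5.52, 4.84, 5.06 and 4.65, and in KO-KO libraries 1 to 5 they were 5.61, 5.17, 5.52, 5.32 and 5.77. All WT-KO libraries lay below all WT-WT libraries, and KO-KO libraries reached from the WT-KO range into the KO-WT range. Lin28a loss with Trim71 intact lowered Ccnd2 by 51.1% (log2 difference -1.03 ± 0.169; limma adjusted p 0.000156; lower in 4 of 4 same-day pairs), the largest difference among the 10 genes in any of the 5 comparisons of genotypes. Without Trim71 the Lin28a difference was -0.33 ± 0.169 (limma adjusted p 0.126), which passed without WT-KO replicate 2 (-0.35, adjusted p 0.0286) and in a fit of only the 2 genotypes compared (-0.37, adjusted p 0.0243). It shrank to -0.19 without KO-WT replicate 3 (limma adjusted p 0.417) and to -0.20 without KO-KO replicate 2 (0.389), and was -0.49 within clones E3 and C1 (0.088). Within clones 1 and 1-4, where KO-WT replicate 4 was the only KO-WT library used, this Lin28a difference was -0.05. The Trim71 difference in Lin28a-null cells was 0.48 ± 0.157 (limma adjusted p 0.0689; higher in 4 of 5 pairs), against -0.22 ± 0.183 with Lin28a intact (limma adjusted p 0.457). The difference between those 2 Trim71 effects, the interaction, was 0.70 ± 0.241 with an unadjusted limma p of 0.0102 and an adjusted p of 0.239, so a difference was not established over all genes. By clone, the Trim71 difference in Lin28a-null cells was 0.91 (limma adjusted p 0.0159) between clone 1-4 libraries and 0.20 (limma adjusted p 0.756) between clone C1 libraries. It passed the threshold when WT-KO replicate 2, the highest WT-KO library, was left out (0.68, limma adjusted p 0.00417), and also without KO-KO replicate 2 (0.60, adjusted p 0.0473) or KO-WT replicate 3 (adjusted p 0.0472).

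Ccnd3 (chr17:47505051-47599691, plus strand), cyclin D3, was the most abundant D-type cyclin and moved least of the 3. Its log2 values were 11.26, 11.22, 11.16 and 11.20 in WT-WT and 11.28, 11.29, 11.32 and 11.24 in KO-WT libraries 1 to 4. In WT-KO libraries 1 to 5 they were 11.10, 11.06, 11.12, 11.04 and 11.18, and in KO-KO libraries 1 to 5 they were 11.04, 11.13, 11.05, 11.15 and 11.05. KO-KO lay wholly below KO-WT, and WT-KO overlapped WT-WT through WT-KO replicate 5. Lin28a loss lowered Ccnd3 by 12.9% in Trim71-null cells (log2 difference -0.20 ± 0.0425; limma adjusted p 0.00132; 4 of 4 pairs), while the difference with Trim71 intact was -0.11 ± 0.0425 (limma adjusted p 0.0532). The latter passed without WT-WT replicate 3 (adjusted p 0.0388 by limma), KO-WT replicate 3 (0.047), WT-KO replicate 5 (0.0235) or KO-KO replicate 4 (0.0418), and after the GC and length trend was removed (-0.14, 0.00248), which moved the Trim71-null difference to -0.13 (still called, 0.00505). Within clones 1 and 1-4, where KO-WT replicate 4 was the only KO-WT library used, the Trim71-null difference was -0.19. A processed copy, Ccnd3-ps, shares 6.93% of the 50-base windows of the Ccnd3 transcript, and reads from that stretch could be split between the 2.

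The make-up of the D-type cyclin pool shifted accordingly. Its summed level had means between 1288 and 1395 units per kb in the 4 genotypes. Every KO-WT library, at 1360 to 1440, lay above every WT-WT library, at 1242 to 1350, and the sum was not tested. Ccnd3 made up 85.5% ± 1.55 (SD over the 4 libraries) of the summed units per kb in WT-WT and 84.6% ± 0.518 in the 4 KO-WT libraries. It made up 80.5% ± 2.16 in the 5 WT-KO and 79.8% ± 1.08 in the 5 KO-KO libraries. Ccnd1 made up 13.7% ± 1.48, 14.7% ± 0.452, 19.1% ± 2.09 and 19.6% ± 1.04 in the same order. Ccnd2 was a minor component at 0.790% ± 0.0757, 0.641% ± 0.0906, 0.400% ± 0.0981 and 0.555% ± 0.103. The Ccnd1 share was higher in every Lin28a-null library, at 16.1% or more, than in every Lin28a-intact library, at 15.7% or less. The shares use annotated transcript lengths and are given as a description, without a test of their own.

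**Figure D3:**
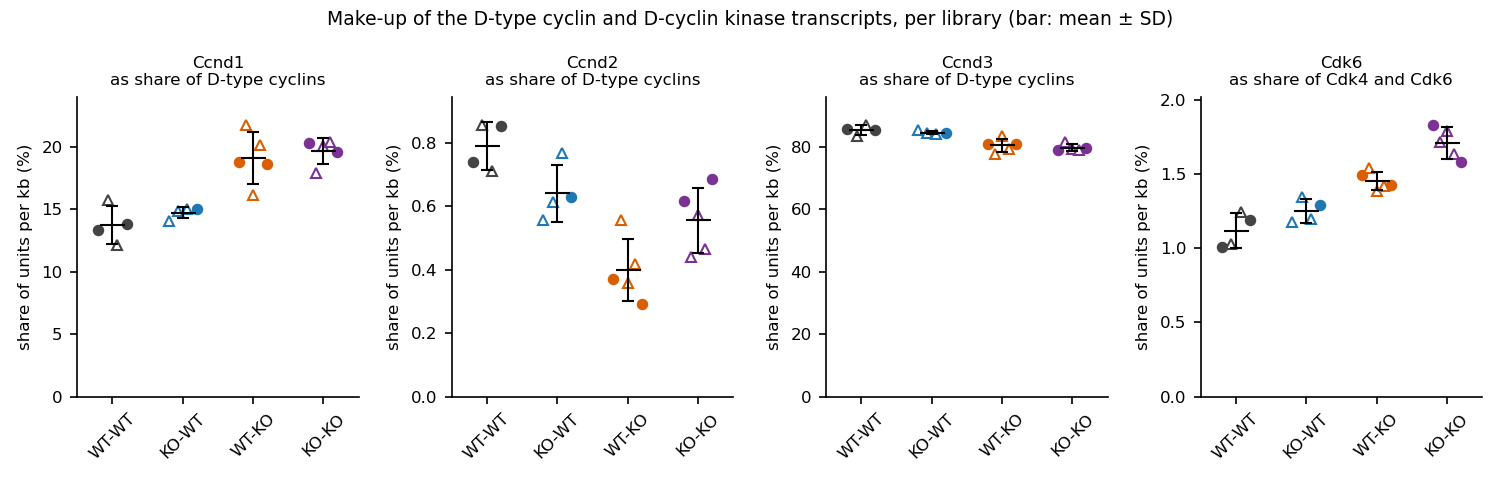
Share of Ccnd1, Ccnd2 and Ccnd3 in the summed D-type cyclin units per kb, and of Cdk6 in the Cdk4 and Cdk6 units per kb (y axes in percent, from 0, differing between panels), per library with mean ± SD; filled circles are clones 1 and 1-4, open triangles E3 and C1. The Ccnd1 share was 13.7% in WT-WT and 19.6% in KO-KO cells, and the Cdk6 share 1.12% and 1.71%.

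Cdk6 (chr5:3341485-3531008, plus strand), 1 of the 2 kinases that D-type cyclins activate, rose with Lin28a loss and was highest in KO-KO cells. Its log2 values were 7.21, 7.31, 7.40 and 7.44 in WT-WT and 7.53, 7.63, 7.54 and 7.61 in KO-WT libraries 1 to 4. In WT-KO libraries 1 to 5 they were 7.92, 8.003, 7.74, 7.85 and 7.85, and in KO-KO libraries 1 to 5 they were 8.13, 7.97, 8.16, 8.04 and 7.93. The WT-WT, KO-WT and WT-KO ranges followed each other without overlap, and KO-KO overlapped WT-KO and lay above the rest. Lin28a loss raised Cdk6 by 44.5% with Trim71 intact (log2 difference 0.53 ± 0.0716; limma adjusted p 2.4e-05; 4 of 4 same-day pairs). Without Trim71 it raised Cdk6 by 38.5% (0.47 ± 0.0716; limma adjusted p 7.82e-05; 4 of 4 pairs). KO-KO cells exceeded WT-WT cells by 63.0% (0.71 ± 0.0716; limma adjusted p 1.11e-06; 4 of 4 pairs). Between clones E3 and C1 the 2 Lin28a differences were 0.50 and 0.49, and between clones 1 and 1-4 they were 0.56 and 0.42. The last of these rests on KO-WT replicate 4 alone, the only KO-WT library of those clones used.

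After Trim71 loss the Cdk6 differences did not pass the test. They were 0.23 ± 0.0774 with Lin28a intact (limma adjusted p 0.0598; higher in 3 of 3 pairs, libraries not overlapping, as for 28.2% of all genes in that comparison) and 0.17 ± 0.0663 without Lin28a (limma adjusted p 0.123; higher in 4 of 5 pairs). The interaction for Cdk6 was -0.06 ± 0.102, with a 95% interval of -0.28 to 0.15. The first difference crossed the threshold in 2 of the 18 fits without 1 library. These left out WT-KO replicate 2 (limma adjusted p 0.0358) or replicate 3 (adjusted p 0.0433). It also crossed in 3 of the 11 other alternatives. These were no day term (limma adjusted p 0.0103), 75th percentile scaling (0.25, adjusted p 0.0389) and removal of the GC and length trend (0.41, adjusted p 0.00182). In the remaining fits it was not called. In that comparison the differences of all genes ran with transcript GC content (Spearman correlation 0.513 over 14724 genes, which are no independent points). The Cdk6 transcript used here has 45.1% GC.

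Cdk4 (chr10:127063534-127067920, plus strand), the other D-cyclin kinase and the most abundant of the 10 genes per kb, moved far less. It had log2 values of 11.33, 11.41, 11.23 and 11.33 in WT-WT and 11.48, 11.51, 11.40, 11.48 and 11.47 in WT-KO libraries, and lay between 11.32 and 11.46 in KO-WT and KO-KO libraries. WT-WT replicate 3 was the lowest, and WT-KO replicate 3 lay below WT-WT replicate 2. Lin28a loss with Trim71 intact raised Cdk4 by 10.5% (0.14 ± 0.0461; limma adjusted p 0.0188; 3 of 4 same-day pairs), and without WT-WT replicate 3 the call was lost (0.10, limma adjusted p 0.095). The call was also lost within clones E3 and C1 (0.15, limma adjusted p 0.261) and on the 3 days with all 4 genotypes (0.13, adjusted p 0.0969). The other 4 comparisons of Cdk4 gave differences between -0.07 and 0.08, none called, and 1 of them, Lin28a loss in Trim71-null cells, had a 95% interval of -0.08 to 0.11. Cdk6 made up 1.12% ± 0.116 (SD, n = 4) of the summed Cdk4 and Cdk6 units per kb in WT-WT cells and 1.25% ± 0.0804 (n = 4) without Trim71. It made up 1.45% ± 0.0613 (n = 5) without Lin28a and 1.71% ± 0.106 (n = 5) without both, so Cdk4 stayed the dominant kinase transcript throughout.

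Ccne1 (chr7:38097984-38107534, minus strand), cyclin E1, was the prevailing E-type cyclin, and Ccne2 (chr4:11191351-11204779, plus strand), cyclin E2, made up 6.36% to 7.18% of the E-type units per kb in the 4 genotypes. Ccne1 had log2 values of 10.48, 10.54, 10.35 and 10.49 in WT-WT and 10.61, 10.66, 10.51, 10.61 and 10.65 in WT-KO libraries, and lay between 10.43 and 10.58 in the other 9 libraries. Lin28a loss with Trim71 intact raised it by 10.3% (0.14 ± 0.0485; limma adjusted p 0.0274; 3 of 4 same-day pairs), and its libraries overlapped. The difference shrank to 0.09 without WT-WT replicate 3 (limma adjusted p 0.14). The call was also lost, at a similar size, without WT-WT replicate 1 (0.15, adjusted p 0.0515) or any of WT-KO replicates 1, 2 and 5 (0.14, 0.13 and 0.13; adjusted p 0.0606, 0.0502 and 0.0779), within clones E3 and C1 (0.15, 0.253) and on the 3 days with all 4 genotypes (0.13, 0.14). Trim71 loss gave 0.01 ± 0.0524 with Lin28a intact and -0.09 ± 0.0449 without it, neither called. Ccne2 ranged from 6.82 to 7.64 over the 18 libraries with the groups overlapping, and its differences, from -0.18 to 0.11, passed the test in none of the 5 comparisons of genotypes. The widest of their 95% intervals reached from -0.48 to 0.12, for Trim71 loss with Lin28a intact.

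Cdc25a (chr9:109875579-109893895, plus strand), the phosphatase that activates cyclin-dependent kinases, was the 1 member called lower on Trim71 loss. Its log2 values were 10.17, 10.16, 10.07 and 10.21 in WT-WT and 10.08, 10.05, 10.001 and 9.94 in KO-WT libraries 1 to 4. In WT-KO libraries 1 to 5 they were 10.15, 10.16, 10.13, 10.23 and 10.16, and in KO-KO libraries 1 to 5 they were 9.93, 9.87, 9.93, 9.96 and 9.96. Every KO-KO library lay below every WT-KO library, as for 12.6% of all genes in that comparison, whereas KO-WT replicate 1 lay just above WT-WT replicate 3. Trim71 loss lowered Cdc25a by 15.0% in Lin28a-null cells (log2 difference -0.24 ± 0.0405; limma adjusted p 0.00205; lower in 5 of 5 same-day pairs). With Lin28a intact the difference was -0.14 ± 0.0473 (limma adjusted p 0.0697; lower in 3 of 3 pairs), and the call was made without KO-WT replicate 1 (-0.16, limma adjusted p 0.0481). By clone it was -0.07 in E3 (limma adjusted p 0.654) and -0.26 in clone 1, where KO-WT replicate 4 was the only KO-WT library used. The 2 effects differed by -0.10 ± 0.0623 (limma adjusted p 0.456), so they were not shown to differ. Lin28a loss gave 0.01 ± 0.0438 and -0.09 ± 0.0438, neither called. The call in Lin28a-null cells was kept in each of the 18 fits that left out 1 library. It was lost, at a similar size, in smaller sets: clones E3 and C1 (-0.25, limma adjusted p 0.0922), clones 1 and 1-4 (-0.21, adjusted p 0.0528) and the 3 days with all 4 genotypes (-0.22, adjusted p 0.0743).

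Rb1 (chr14:73183673-73325822, minus strand), the pocket protein that holds back E2F, fell with Lin28a loss in Trim71-intact cells. Its log2 values were 7.92, 7.94, 8.46 and 8.11 in WT-WT and 7.88, 7.93, 7.76 and 8.10 in KO-WT libraries 1 to 4. In WT-KO libraries 1 to 5 they were 7.70, 7.55, 7.83, 7.59 and 7.41, and in KO-KO libraries 1 to 5 they were 7.93, 7.93, 7.77, 7.66 and 7.85. All WT-KO libraries lay below all WT-WT libraries, and KO-KO overlapped the 3 other groups. Rb1 fell by 28.9% on Lin28a loss with Trim71 intact (-0.49 ± 0.114; limma adjusted p 0.00259; 4 of 4 pairs). Without WT-WT replicate 3, the highest library, the difference was -0.33 and still called (limma adjusted p 0.0109). In Trim71-null cells the Lin28a difference was -0.09 ± 0.114 (limma adjusted p 0.565), and the 2 Trim71 differences were -0.19 ± 0.123 with and 0.21 ± 0.105 without Lin28a, neither called; the first was -0.02 without WT-WT replicate 3. The interaction for Rb1 was 0.40 ± 0.162 (unadjusted limma p 0.0236, adjusted p 0.284), so the 2 Lin28a effects were not shown to differ over all genes. KO-KO against WT-WT gave -0.28 ± 0.114 (limma adjusted p 0.0573), which crossed the threshold in 4 of the 18 fits without 1 library: without WT-WT replicate 1 (-0.37, adjusted p 0.0268), WT-WT replicate 2 (-0.35, adjusted p 0.0339), KO-WT replicate 4 (adjusted p 0.045) or WT-KO replicate 3 (adjusted p 0.0409). It shrank to -0.12 without WT-WT replicate 3 (limma adjusted p 0.328), to -0.13 within clones 1 and 1-4 (0.383) and to -0.15 after the GC and length trend was removed (0.204), and was -0.42 within clones E3 and C1 (0.0828).

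Cdkn1b (chr6:134920401-134925513, plus strand), the inhibitor of cyclin-CDK2 complexes, was not called in any comparison. It lay between 7.58 and 7.83 in all 18 libraries with all groups overlapping, and its differences ran from -0.02 to 0.04 over the 5 comparisons of genotypes. Their 95% intervals ended between -0.15 and 0.17, so the data allow changes of up to about that size on the log2 scale.

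**Figure D4:**
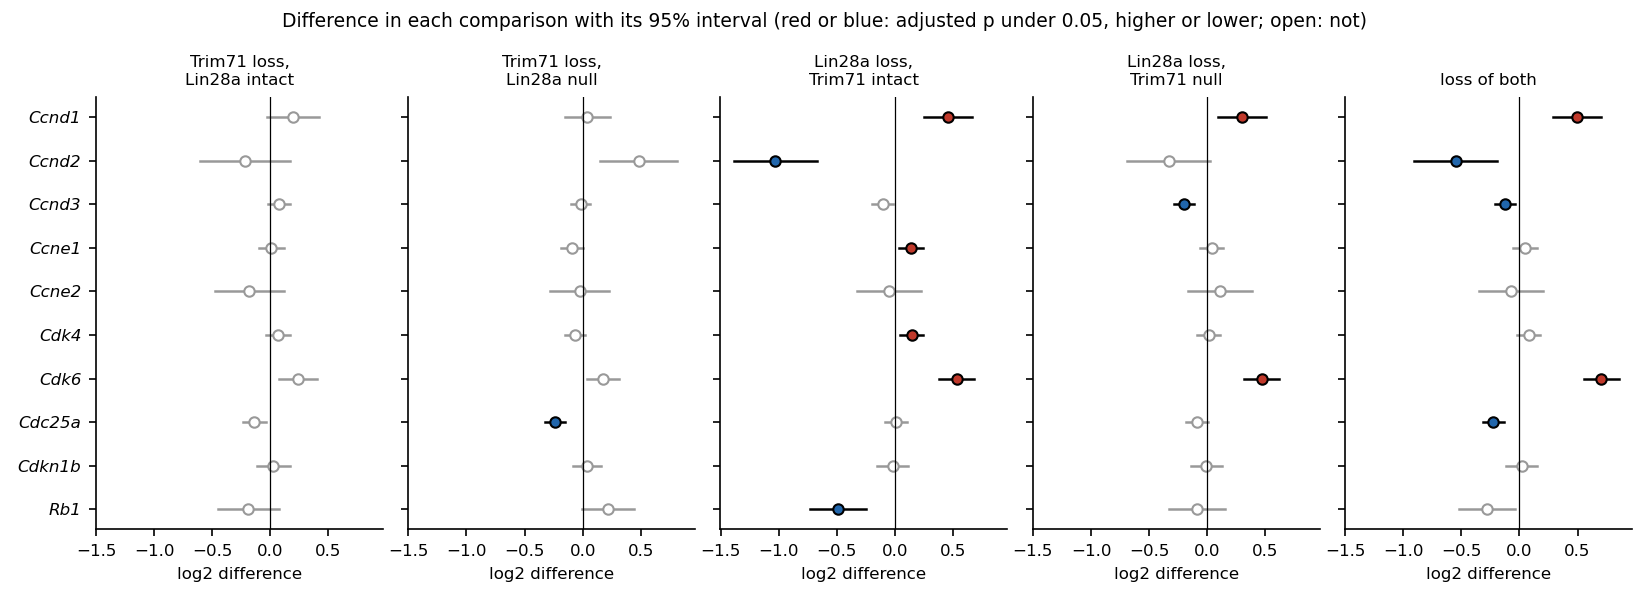
Log2 difference of each of the 10 genes in the 5 comparisons of genotypes (x axis), with its 95% interval; filled points have an adjusted p under 0.05. Cdk6 lies at 0.53 and 0.47 for Lin28a loss, Ccnd2 at -1.03 with Trim71 intact, and Cdc25a at -0.24 for Trim71 loss in Lin28a-null cells.

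KO-KO and WT-WT cells, which differ in both genes, were set apart by 5 members whose libraries did not overlap. Ccnd1 (0.50 ± 0.0974; limma adjusted p 0.000702) and Cdk6 were higher. Ccnd2 (-0.55 ± 0.169; adjusted p 0.0148 by limma), Ccnd3 (-0.12 ± 0.0425; 0.0254) and Cdc25a (-0.23 ± 0.0438; 0.00064) were lower. Of all genes, 44.5% had such non-overlapping libraries in this comparison. The Ccnd3 call was lost in 12 of 29 alternative fits, among them median scaling (-0.08, limma adjusted p 0.165), clones E3 and C1 (-0.07, adjusted p 0.484) and 6 fits without 1 library, which left out WT-WT replicates 1, 2 or 4 (adjusted p 0.107, 0.0646 and 0.0543) or KO-KO replicates 1, 3 or 5 (0.088, 0.0649 and 0.0734). The Ccnd2 call was lost without WT-WT replicate 2 (-0.47, limma adjusted p 0.0605) or replicate 4 (-0.50, adjusted p 0.0511) and within each pair of clones (-0.66, 0.0638; -0.37, 0.0657), and the Cdc25a call within clones E3 and C1 (-0.19, adjusted p 0.0906). No member was called for the interaction by limma, 2 had an unadjusted p under 0.05 (Ccnd2 and Rb1), and 3 of all 14988 genes, 0.0200%, were called.

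The members with a let-7 seed match did not move as a group. On Lin28a loss with Trim71 intact, Ccnd1, Cdk4 and Cdk6 of the 6 genes with a match rose and Ccnd2 and Rb1 fell, with a median log2 difference of 0.08 over the 6. The 4 genes without a match had a median of -0.03, and Ccne1 was the 1 called. In Trim71-null cells 2 of the 6 rose, Ccnd1 and Cdk6, and 1 of the 4, Ccnd3, fell. The median over all 14988 genes was -0.01 and -0.00082 in these comparisons. On Trim71 loss the medians of the 6 were -0.04 with Lin28a and 0.11 without it, with Cdc25a called lower in the latter.

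Several members overlap a gene on the other strand, and since the library kit does not mark strand, reads from shared exons cannot be assigned. The exon overlap was 1100 bases for Ccnd1 with Oraov1, 641 for Cdk4 with Tspan31, 609 for Ccne2 with Ints8, 353 for Ccnd3 with Bysl, 372 for Ccnd2 with Gm43126, 110 for Cdk6 with Gm17590 and 105 for Rb1 with Rcbtb2. Oraov1 differed by 0.08 (limma adjusted p 0.48) on Lin28a loss with Trim71 intact, where Ccnd1 rose by 0.45, and Tspan31 by -0.01 (adjusted p 0.919). Rcbtb2 fell there by 0.21 (limma adjusted p 0.00811), in the direction of Rb1, and Gm17590 by 0.18 (adjusted p 0.036), against the direction of Cdk6. Ints8 differed there by -0.22 (limma adjusted p 0.0414), where Ccne2 was not called. In Trim71-null cells Rcbtb2 differed by -0.25 on Lin28a loss (limma adjusted p 0.00217), where Rb1 was not called.

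The other CDK inhibitors, which block the same kinases, moved together with the Lin28a genotype. All 5 tested genes of this list of 6 fell on Lin28a loss in both Trim71 states, where 22.0% of all genes were called lower in each. The median log2 difference of the 5 was -0.52 with Trim71 intact and -0.83 in Trim71-null cells, against -0.01 and -0.00082 over all genes. Cdkn2c was too low to test. Cdkn2a, the INK4A and ARF gene, had log2 differences of -0.97 ± 0.075 and -1.14 ± 0.075 (limma adjusted p 6.15e-08 and 1.01e-08), and Cdkn2b, INK4B, of -0.79 and -0.83. Cdkn1a, the inhibitor induced by p53, gave -0.52 and -0.54, Cdkn1c -0.44 and -0.85, and Cdkn2d -0.32 and -0.54. Within clones E3 and C1 the calls of Cdkn1c (-0.30, limma adjusted p 0.138) and Cdkn2d (-0.30, adjusted p 0.0968) with Trim71 intact were lost. Trim71 loss raised 2 of the 5 with Lin28a intact and 1 in Lin28a-null cells, and lowered none. Of all genes, 11.2% and 8.38% were called in either direction there. Cdkn1a rose by 0.40 ± 0.0889 with Lin28a (limma adjusted p 0.0123) and 0.38 ± 0.0761 without it (adjusted p 0.00571). Both calls were lost within clones E3 and C1 (limma adjusted p 0.239 and 0.174), and the first without KO-WT replicate 3. Cdkn2a rose by 0.32 ± 0.081 on Trim71 loss with Lin28a intact (limma adjusted p 0.0233), a call lost without WT-WT replicate 3 or 4 or KO-WT replicate 2 or 3. The trophectoderm and primitive endoderm marker lists fell in the same libraries as the inhibitors, and the part of that in the inhibitor levels was not tested.

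Downstream of the pocket proteins, E2f2, an activating E2F, and E2f8, a repressive E2F, rose on Trim71 loss in both Lin28a states. E2f2 rose by 0.24 ± 0.0707 (limma adjusted p 0.0381) with Lin28a and 0.31 ± 0.0605 (adjusted p 0.00437) without it, and E2f8 by 0.25 ± 0.0634 (adjusted p 0.0236) and 0.29 ± 0.0543 (adjusted p 0.0032). Within clones E3 and C1 none of these 4 differences was called, at 0.24 to 0.39, and with Lin28a intact E2f2 lost its call in 7 and E2f8 in 4 of the 18 fits without 1 library. Of the 12 pocket protein, E2F and DP genes, 2 rose and 1, Tfdp2, fell with Lin28a intact, and 2 rose in Lin28a-null cells, where 11.2% and 8.38% of all genes were called. Among 18 replication licensing and S-phase genes, 6 fell on Trim71 loss in Lin28a-null cells: the helicase subunits Mcm2, Mcm3 and Mcm6, the licensing factors Cdt1 and Orc1, and Mcm10, by 0.13 to 0.19, where 4.12% of all genes were called lower. Of these, Mcm3 (-0.19 ± 0.037; limma adjusted p 0.00519) kept its call in all 18 fits without 1 library, while each of the other 5 lost it in 6 to 8 of them. With Lin28a intact 2 of the 18 fell (Mcm4 and Orc1) and 1 rose (Tk1). On Lin28a loss 3 rose with Trim71 intact, Mcm2, Mcm3 and Cdt1 (0.24, 0.26 and 0.19). In Trim71-null cells 3 rose, Mcm2, Mcm3 and Mcm4 (0.15, 0.20 and 0.21), and 1 fell, Tk1 (-0.22), and the list had medians of 0.01 and -0.03. Of all genes, 20.3% and 20.8% rose in these 2 comparisons and 22.0% fell in each.

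Of 4 Myc family genes, which drive growth and cyclin transcription, 1 fell on Trim71 loss in each Lin28a state. Lin28a loss lowered 2 of the 4 in each Trim71 state, where 22.0% of all genes were called lower. None of the 4 rose in these comparisons. Mycl fell on Trim71 loss by 0.50 ± 0.0813 with Lin28a (limma adjusted p 0.00231) and 0.52 ± 0.0696 without it (adjusted p 0.000278). Within clones E3 and C1 the first of these was not called (-0.48, limma adjusted p 0.115). Myc, the most studied of the 4, fell on Lin28a loss by 0.64 ± 0.142 with Trim71 (limma adjusted p 0.00188) and 0.67 ± 0.142 without it (adjusted p 0.0013), and its partner Max by 0.34 and 0.35; within clones E3 and C1 the first Myc difference was not called (-0.66, adjusted p 0.0591). Of 4 regulators of the kinases' inhibitory phosphates, 2 rose and 1 fell on Lin28a loss with Trim71 intact, 1 rose in Trim71-null cells, and 1 fell on Trim71 loss in Lin28a-null cells (Wee1, -0.14, limma adjusted p 0.0471). Cdc25b, a relative of Cdc25a, rose on Lin28a loss by 0.42 ± 0.0752 (limma adjusted p 0.000373) and 0.48 ± 0.0752 (adjusted p 0.000107), while Cdc25a itself was not called there. Pkmyt1, a kinase that adds those phosphates, rose by 0.34 ± 0.0659 with Trim71 intact (limma adjusted p 0.000653), where the mitotic phosphatase Cdc25c fell by 0.16 (adjusted p 0.0289). Among 11 ubiquitin ligase parts that act on G1 proteins, of which 10 were tested, 2 fell on Trim71 loss in each Lin28a state, with Btrc in both (-0.22 and -0.21). On Lin28a loss 3 rose and 1 fell with Trim71 intact, and 2 rose and 1 fell in Trim71-null cells. For the counts of these lists, 11.2% and 8.38% of all genes were called on Trim71 loss with and without Lin28a. On Lin28a loss 42.4% were called with Trim71 intact and 42.8% in Trim71-null cells.

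Of 10 mitotic genes, 5 fell on Lin28a loss with Trim71 intact, namely Cenpf (-0.98 ± 0.159; limma adjusted p 0.000144), Mki67 (-0.79 ± 0.153; adjusted p 0.000648), Bub1 (-0.40 ± 0.108; adjusted p 0.00697), Aurka and Cdc20, and Foxm1, a transcription factor of the mitotic program, rose by 0.19. In Trim71-null cells 3 fell, Aurka, Aurkb and Cdc20, and Foxm1 rose by 0.24. Of all genes, 22.0% were called lower in each of these comparisons, so the 3 of 10 lie near the background. Trim71 loss with Lin28a intact lowered 3 of the 10 mitotic genes and raised 1, where 11.2% of all genes were called in either direction. Those that fell were Cenpf, Mki67 and Bub1 (-0.82, -0.59 and -0.46). Mki67 lost its call in 5 and Bub1 in 3 of the 18 fits without 1 library. None of the 10 was called on Trim71 loss in Lin28a-null cells. Of the 6 S and M cyclins and their kinase, 3 fell on Lin28a loss with Trim71 intact (Ccnb1, Ccnf and Cdk1, by 0.09 to 0.17) and 2 in Trim71-null cells (Ccnf and Cdk1, by 0.21 and 0.23). The share over all genes was again 22.0% in each. The call of Ccnb1 was lost in 5 of 18 fits without 1 library, and the value turned to 0.01 after the GC and length trend was removed. Of Cdk2, the E-cyclin kinase, and the 3 subunits of the CDK-activating kinase, 1 was called in these 4 comparisons: Ccnh, lower by 0.13 on Lin28a loss in Trim71-null cells (limma adjusted p 0.0357).

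Many calls among these 9 lists changed with the libraries used or the GC correction. Of the 15 genes called on Trim71 loss with Lin28a intact, 4 kept their call whichever library was left out, and of the 13 called in Lin28a-null cells, 6 did. On Lin28a loss 22 of 28 did with Trim71 intact and 20 of 24 in Trim71-null cells. Within clones E3 and C1, 0 of 15, 1 of 13, 10 of 28 and 13 of 24 kept it. Within clones 1 and 1-4, 4 of the 13 and 22 of the 28 did. The first and last comparisons are left out there, since KO-WT replicate 4 is the only KO-WT library of those clones used. With all 18 libraries and the GC and length trend removed, 8, 13, 24 and 21 kept it.

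**Figure D5:**
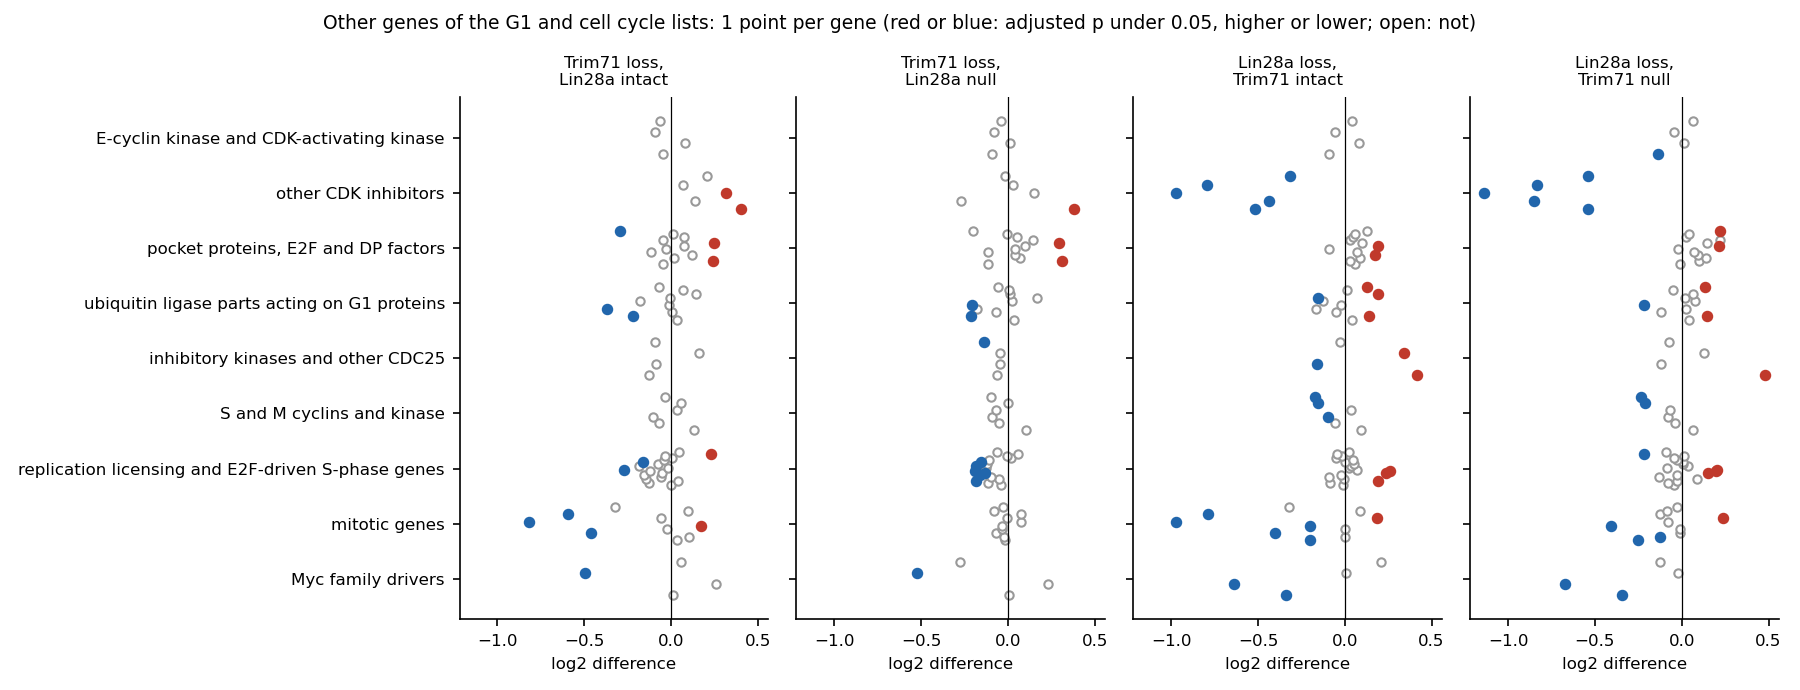
Log2 difference (x axis) of each tested gene of 9 further cell cycle lists in 4 comparisons, 1 point per gene; filled points have an adjusted p under 0.05. The 5 tested CDK inhibitors lie between -0.32 and -0.97 for Lin28a loss with Trim71 intact and between -0.54 and -1.14 in Trim71-null cells.

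Across the 18 libraries some members varied together. Cdk4 and Ccne1 had a Pearson correlation of 0.91, Cdk6 and Ccnd1 of 0.84, and Rb1 ran against Ccne1 (-0.92), Cdk4 (-0.89) and Ccnd1 (-0.81), while those of Ccne2 with the other members ran from -0.45 (Ccnd3) to 0.24 (Cdc25a). The libraries share genotypes, clones and days, so these values describe the set and carry no test. WT-WT replicate 3 had the lowest Ccne1 and Cdk4 and the highest Rb1 of all libraries and the lowest Ccnd1. Within its genotype that library's deviations ran against GC content (rank correlation -0.386 across 14724 genes), as did those of WT-KO replicate 4 (-0.457), while KO-WT replicate 3 ran the other way (0.48); the part of this in the members' values was not tested.

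Among 10813 genes with a mean of at least 50 units, those whose profile over the 18 libraries was most like a member's were found by Pearson correlation. Elac2 (0.95) was among the genes closest to Ccnd1. Cdk6 was closest to Gm26762 (0.97) and Adam23 (0.96), and Cdc25a to Tdrd12 (0.96) and Liph (0.95). Ccnd3 was closest to 1810055G02Rik (0.96) and Eif3i (0.96), Rb1 to Trp53inp1 (0.96) and Ckap2 (0.92), and Ccnd2 to Gm15787 (0.92) and Csrnp1 (0.91). Cdk4 and Ccne1 had the same closest gene, Coro1c (0.95 for both), followed by Angptl4 (0.92) and Hmga1 (0.92). Ccne2 was closest to Gm26733 (0.92) and Srsf7 (0.92), and Cdkn1b, which barely varied, to Nudt5 (0.77) and Btg1 (0.75). These are the highest of many correlations over libraries that share genotypes and days, and carry no test.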

How the data were processed

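RNA of 18 mESC libraries in 4 genotypes was analysed from 1 gene table. The deposited values are on a log2 scale, read so because the values run from -0.71 to 16.3 and their powers of 2 sum to similar totals in all libraries. Per the submitters' processing notes, CASAVA 1.8, STAR and DESeq2 were used; their roles and the genome build are not given in the sources used here. Day effects had been removed before deposit: no gene had a harvest-day coefficient above 1.7e-08 in the fit. KO-WT replicate 5 was left out, since its value for each gene was the average of KO-WT replicates 1 to 4 (within 1.5e-08). The deposited values hold no read counts, so the depth behind a value is unknown, and no count test was possible.

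Genes with at least 10 units in at least 4 libraries were fitted with limma 3.58.1 (R 4.3.3), with genotype and day terms (10 residual degrees of freedom) and a trended variance. The day term spends the degrees of freedom that removing day effects had used. The fit was also run on simulated data with known changes in the KO-WT libraries. Those data held no clone differences and no GC trend, so the run does not show how either acts on the results. Pairs of libraries are those of the same labelled day: 3, 5, 4, 4 and 4 for the 5 comparisons of genotypes, the last being KO-KO against WT-WT. The members, gene lists and tests were chosen with earlier results of these data known. The rule for named genes was: all members, any gene of a fixed cell cycle list after that list's counts, and the 2 genes most like each member. A result under this rule is not reported here. Skp1 was listed but not matched by symbol. The alternatives were no day term, no filter, other scalings, a GC and length correction, subsets of clones, days and genotypes, all 19 libraries, no variance trend and leaving out each library.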

Additional observations from a re-analysis of the deposited data

Results flagged for a closer look

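Of 72 groups of 4 or 5 libraries examined, over the members' log2 values and the make-up of the cyclin and kinase pools, 2 had 1 library far from the rest by Dixon's ratio, where chance alone flags about 1 group in 20. The Ccnd1 share of D-type cyclin units per kb was 14.04% in KO-WT replicate 1, below the other KO-WT libraries at 14.9% to 15.0%. The Ccnd3 share was 81.7% in KO-KO replicate 2, above the other KO-KO libraries at 79.1% to 79.8%. No cause of either was tested.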

How the results depend on the processing

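The 60 member results (10 genes, 5 comparisons of genotypes and the interaction) were refitted under 29 alternatives, which gave 1730 refits: 1665 kept their direction where called and their side of the threshold, 37 lost a call, 28 gained one and none turned a called value around. Among the uncalled results the sign changed in 77 refits. On Trim71 loss with Lin28a intact, the 11 alternatives other than leaving out 1 library gave -0.36 to 0.15 for Ccne2, against -0.18 as reported. For Rb1 they gave -0.35 to 0.11, against -0.19. The fit of only the 2 genotypes compared was not possible for the interaction. Members called on Trim71 loss with Lin28a intact numbered 0 as reported, 2 with no replicate block (no day term), 1 with 75th percentile scaling, 1 with the GC content and length trend removed, and 0 to 1 without each library. In Lin28a-null cells they numbered 1, then 3 with no replicate block, 0 in clones E3 and C1, 0 on the 3 days with all 4 genotypes and 1 to 2 without each library. On Lin28a loss with Trim71 intact they numbered 6, then 3 in clones E3 and C1 and 5 to 7 without each library. On Lin28a loss in Trim71-null cells they numbered 3, then 2 to 4 without each library. For clones 1 and 1-4 no count is given there, since KO-WT replicate 4 is their only KO-WT library used. KO-KO against WT-WT gave 5, then 2 in clones E3 and C1 and 3 to 6 without each library, with 3 when WT-WT replicate 4 was left out. The day term pairs libraries by their labelled day; without it the counts with no replicate block were 7 and 4 on Lin28a loss, 6 for KO-KO against WT-WT and 0 for the interaction. Among 73 other cell cycle genes the direction turned in 3 results, all with the GC content and length trend removed. Ccnb1, called lower on Lin28a loss with Trim71 intact, gave 0.0141 (limma adjusted p 0.771), and Ccnh, called lower in KO-KO against WT-WT cells, gave 0.0071 (adjusted p 0.92). Rrm2, not called in that comparison, gave 0.0841 (adjusted p 0.0331). The subsets of clones and days hold fewer libraries; no other cause was tested. With the depth unknown, the data do not show how much of the spread of low genes such as Ccnd2 is counting error.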
